A study of Mus musculus with 6 samples.

Results

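The Zscan4 family of the mouse is a cluster of near-identical genes on chromosome 7 that encode proteins with a SCAN domain and zinc fingers. Its RNA appears in the 2-cell embryo and, in bursts, in a small share of embryonic stem cells that pass through a 2-cell-like state. In mouse stem cells the proteins are known for telomere lengthening and genome stability, and for a transient loss of DNA methylation. The members described here were taken by symbol, and 9 of 9 symbols, Zscan4a to Zscan4f and the pseudogene symbols Zscan4-ps1, Zscan4-ps2 and Zscan4-ps3, were found among 19571 genes.

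RNA came from 3 samples of E14 mouse embryonic stem cells in which both Dot1l alleles had been knocked out with CRISPR/Cas9 (Dot1L-/-, here Dot1l KO), and from 3 samples of wild-type (WT) E14 cells. Both groups were labelled day 14 and grew on gelatin in serum with LIF, and total RNA was treated with DNase before libraries were made. The labels do not say how many KO lines or clones the 3 samples stand for, nor whether replicates are separate cultures, so the p-values measure only the spread between these samples. Dot1l is the methyltransferase of lysine 79 of histone H3.

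The values are the authors' own DESeq2 comparison, a table of mean normalized counts, log2 fold changes with standard errors (SE) and Wald p-values; values per library and library depths were not analysed here. Which genotype stands on top of the fold change is not stated. Positive values were taken to mean more RNA in Dot1l KO, since published work has Dot1l repressing the 2-cell element MERVL; the rise of Zscan4 is no independent evidence for that reading, and every direction, as well as the genotype that each implied level below is given to, would turn with it. MERVL itself was thereby fixed as higher. For Dot1l itself the authors' deposited table gives a log2 fold change of -0.16 ± 0.25 (SE) with adjusted p = 0.845 at a mean of 5761 counts, so its RNA level does not settle the sign. The stem cell genes Pou5f1 and Nanog had means of 31376 and 16107 counts over all libraries according to the authors' deposited table.

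Promoter sequence was held for 4 members in the RefSeq table of GRCm38.p6, the assembly behind mm10. They are shown because the 2-cell factor Dux has a known type of motif to look for there, and because they let the members be compared base by base; Zscan4d and Zscan4f passed the test described further on, Zscan4b and Zscan4c did not. Each line is the stretch of 216 bases that all 4 windows share, read on the strand of the gene and ending at or before its annotated start, on chromosome 7. Zscan4f has in capitals first a match to the Dux-type motif, which is TGATT and ATC set apart by 2 free bases, here read on the other strand, and then TATAAA. Dux is the transcription factor that opens the 2-cell program. In the other lines capitals mark the bases that differ from Zscan4f.
Zscan4f, chr7:11397699-11397914, plus strand: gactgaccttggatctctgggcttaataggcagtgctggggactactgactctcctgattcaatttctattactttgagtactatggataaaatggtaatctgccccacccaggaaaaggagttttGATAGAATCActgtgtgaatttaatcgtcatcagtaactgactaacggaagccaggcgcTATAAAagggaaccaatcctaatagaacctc
Zscan4c, chr7:11005506-11005721, plus strand: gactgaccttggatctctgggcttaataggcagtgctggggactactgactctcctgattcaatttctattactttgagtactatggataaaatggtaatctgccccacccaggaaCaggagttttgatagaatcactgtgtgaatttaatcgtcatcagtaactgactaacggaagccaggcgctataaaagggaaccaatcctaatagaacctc
Zscan4d, chr7:11166183-11166398, minus strand: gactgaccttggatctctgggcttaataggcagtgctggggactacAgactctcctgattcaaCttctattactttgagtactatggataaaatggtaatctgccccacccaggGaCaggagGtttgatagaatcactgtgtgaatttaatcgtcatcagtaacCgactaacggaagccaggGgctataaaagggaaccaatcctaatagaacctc
Zscan4b, chr7:10905051-10905266, minus strand: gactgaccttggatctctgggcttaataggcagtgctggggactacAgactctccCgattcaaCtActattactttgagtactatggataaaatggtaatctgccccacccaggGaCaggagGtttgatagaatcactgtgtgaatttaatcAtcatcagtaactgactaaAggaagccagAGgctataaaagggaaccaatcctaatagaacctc

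Over these 216 bases Zscan4c differed from Zscan4f at 1 base, Zscan4d at 7 and Zscan4b at 11. The match to the Dux-type motif had the letters TGATTCTATC in all 4 promoters and began 59 bases before TATAAA in each. Over whole windows of 300 bases, both strands searched, the Dux-type motif was in 4 of 4 member promoters and in 0.572% of 32851 promoters in the table. TATAAA was in 4 of 4 and in 13.6% of all promoters, and the general E-box CANNTG in 4 of 4 and in 72.3%. CACGTG, an E-box that CANNTG also covers, was in 0 of 4 and 7.15% of all, and TGCACA in 0 of 4 and 15.1% of all. The 4 members share descent and are not separate cases, and a match of letters is not a binding site.

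All 9 Zscan4 symbols had higher values in Dot1l KO, and 6 of them passed the test. The 6 were Zscan4a, Zscan4d, Zscan4f and the 3 pseudogene symbols, at an adjusted p under 0.05 in DESeq2's Wald test. Over all genes 5.34% were called higher and 1.25% lower, and higher calls made up 10.9% of the 4237 genes with a mean count in the range of the members. Zscan4b, Zscan4c and Zscan4e did not pass, although their fitted fold changes lay among those of the members that did. The median log2 fold change of the 9 was 5.32, beside -0.02 over all genes, and all 9 had an unadjusted p under 0.05, as 10.6% of all genes had in this direction and 5.55% in the other.

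Levels per genotype were worked out from the mean and the fold change, taking the 3 Dot1l KO and 3 WT libraries as equal in number; they are group means with no spread per library. Zscan4d, the member first described as the main one in the 2-cell embryo, had an implied 648 normalized counts in Dot1l KO against 8.70 in WT. Its log2 fold change was 6.22 ± 1.31 with adjusted p = 0.000143 according to the authors' deposited table, a 95% interval of 3.64 to 8.79. This was the largest fold change of the 9.

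Zscan4f had an implied 263 normalized counts in Dot1l KO against 3.92 in WT. The authors' deposited table gives it a log2 fold change of 6.07 ± 0.63 with adjusted p = 9.26e-19, a 95% interval of 4.84 to 7.30. By p-value it stood at place 10 of the 19564 genes with a p.

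Zscan4a, which GENCODE and RefSeq both annotate as a pseudogene, had an implied 353 normalized counts in Dot1l KO against 5.81 in WT. Its log2 fold change according to the authors' deposited table was 5.92 ± 1.95 with adjusted p = 0.0399, close to the threshold, and the interval ran from 2.09 to 9.75. Centring the fold changes within 20 bins of mean count took the adjusted p to 0.0566, so the call did not hold there; over all alternatives tried it ran from 0.0389 to 1.00.

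Zscan4c, the member first described as the main one in embryonic stem cells, had an implied 318 normalized counts in Dot1l KO against 7.93 in WT. Its log2 fold change was 5.32 ± 2.08 with adjusted p = 0.114 according to the authors' deposited table. Its interval of 1.24 to 9.40 was among the widest of the family.

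Zscan4b and Zscan4e, which differ from each other at 5 of 1722 aligned transcript bases, had the lowest fold changes among the lettered genes. Zscan4e had an implied 239 normalized counts in Dot1l KO against 9.75 in WT, and Zscan4b 111 in Dot1l KO against 6.11 in WT. Log2 fold changes according to the authors' deposited table were 4.62 ± 2.16 for Zscan4e and 4.18 ± 1.97 for Zscan4b, with adjusted p of 0.237 and 0.242. Their intervals, 0.38 to 8.86 for Zscan4e and 0.32 to 8.04 for Zscan4b, came nearest to 0.

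**Figure D1:**
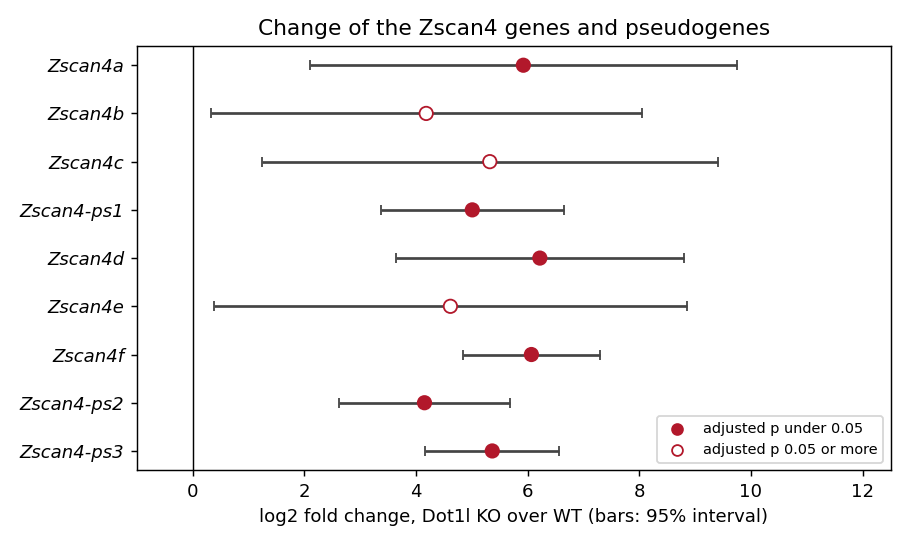
Log2 fold change of Dot1l KO over WT (horizontal axis) for each Zscan4 member in its order along chromosome 7, with 95% intervals; filled points have an adjusted p under 0.05 over all genes. All 9 points lie between 4.15 and 6.22, while the intervals of Zscan4a, Zscan4b, Zscan4c and Zscan4e are the widest.

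The pseudogene symbols had smaller SEs than the lettered members other than Zscan4f, whose SE of 0.63 was below those of Zscan4-ps1 and Zscan4-ps2. Zscan4-ps3 had an implied 340.0 normalized counts in Dot1l KO against 8.24 in WT, and the authors' deposited table has it at 5.37 ± 0.61 with adjusted p = 1.46e-15. Zscan4-ps2 had 206 in Dot1l KO against 11.6 in WT, the highest WT level of the family, with the lowest fold change, 4.15 ± 0.78, and adjusted p = 9.19e-06 according to the authors' deposited table. Zscan4-ps1 had 83.1 in Dot1l KO against 2.58 in WT, the lowest level of the family in both genotypes, at 5.01 ± 0.84 with adjusted p = 3.47e-07 according to the authors' deposited table.

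By this reckoning every member had counts assigned to it in WT cells, at 2.58 to 11.6 implied normalized counts a library. Given the sequence that members share, these counts do not show that each locus is transcribed in WT. The 9 intervals overlapped one another: values from 4.84 to 5.68 lay inside all of them. Differences between members were not tested, because the members share libraries and much of their sequence. Summed over the family, the implied level was 2562 normalized counts in Dot1l KO against 64.7 in WT, a ratio of 39.6. In bulk RNA, more cells in the 2-cell-like state and more Zscan4 RNA per cell cannot be told apart.

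**Figure D2:**
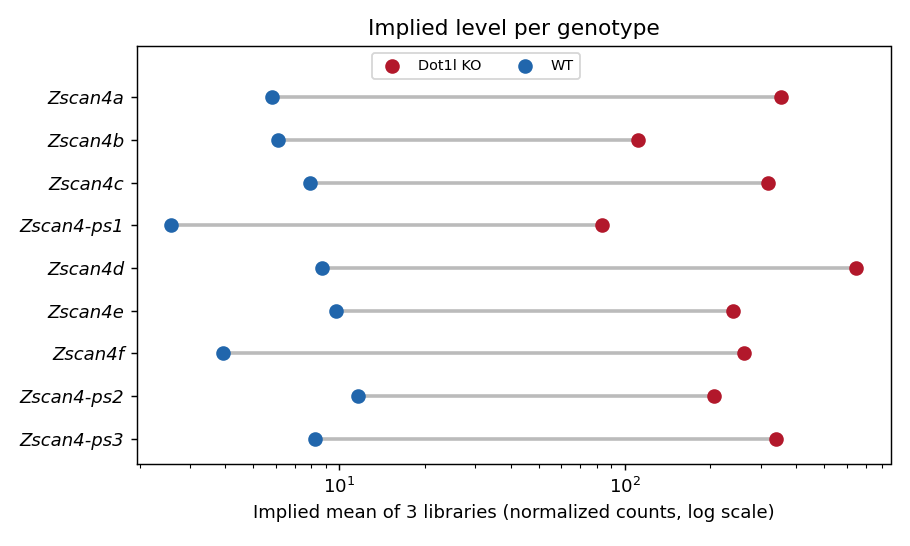
Implied mean of the 3 Dot1l KO libraries (red) and of the 3 WT libraries (blue) for each member, in normalized counts on a log axis, in order along chromosome 7. Dot1l KO means lie between 83.1 and 648, and WT means between 2.58 and 11.6.

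Set per kilobase of annotated exon, Zscan4d was highest in Dot1l KO at 285 normalized counts, followed by Zscan4a at 155, Zscan4-ps3 at 149, Zscan4c at 139.5, Zscan4f at 134.3, Zscan4e at 133.5, Zscan4-ps2 at 90.7, Zscan4b at 61.6 and Zscan4-ps1 at 41.2. In WT the same quantity per kilobase ran from 1.28 in Zscan4-ps1 to 5.44 in Zscan4e. No spread per library stands behind this order, and neighbours in it were not tested.

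The members differed in the error of the fold change, with SEs from 0.61 to 2.16 on the log2 scale beside log2 fold changes from 4.15 to 6.22. Of the 4237 genes with mean counts from 42.8 to 328, the range of the members, the 4 with the largest SE were Zscan4e, Zscan4c, Zscan4b and Zscan4a. Zscan4d came at place 26, Zscan4-ps1 at 81, Zscan4-ps2 at 140, Zscan4f at 463 and Zscan4-ps3 at 535. The median SE was 1.31 over the members and 0.45 over the genes of that range. As for large fold changes elsewhere, 48 other genes of the range had a log2 fold change at or above the lowest member, with a median SE of 0.82 and a highest of 1.82, and all 48 were called higher.

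An SE can be restated as a spread between libraries of one genotype. If all size factors were 1, the coefficient of variation beyond counting error that gives these SEs was 182% for Zscan4e, 175% for Zscan4c, 165% for Zscan4b and 163% for Zscan4a. It was 109% for Zscan4d. Zscan4-ps2 had 62.4%, Zscan4-ps1 55.3%, Zscan4-ps3 45.6% and Zscan4f 39.4%. DESeq2 fits 1 dispersion to both genotypes and draws it towards other genes, so these values do not say which libraries or which genotype varied.

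**Figure D3:**
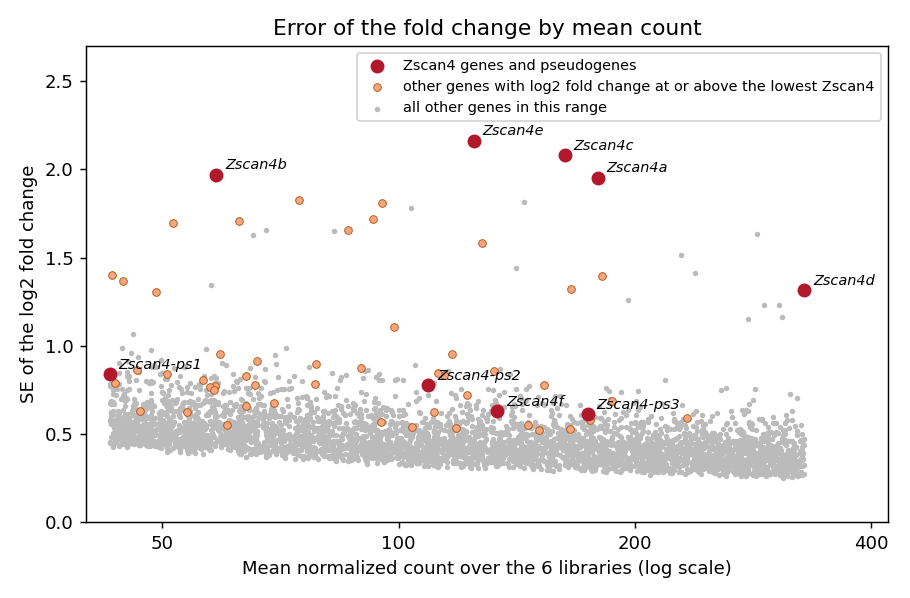
SE of the log2 fold change against the mean normalized count (log axis) for the 4237 genes in the range of the members, with Zscan4 members in red and other genes whose log2 fold change is at least that of the lowest member in orange. Zscan4a, Zscan4b, Zscan4c and Zscan4e lie above every other gene, while Zscan4f and Zscan4-ps3 lie near the rest.

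Sequence likeness limits what is known of single members. Over the 36 pairs of longest GENCODE transcripts, identity ran from 96.6% to 99.8% with a median of 97.5%. The closest pair was Zscan4f and Zscan4-ps2, with 4 mismatches in 1806 aligned bases; Zscan4c and Zscan4f had 7 in 1806. Of all windows of 50 bases in the transcript, 4.66% in Zscan4f were found in no other annotated transcript, 8.43% in Zscan4e, 9.65% in Zscan4b, 12.4% in Zscan4-ps2 and 14.5% in Zscan4c. This share was 27.5% in Zscan4-ps3, 36.4% in Zscan4a, 50.4% in Zscan4d and 51.6% in Zscan4-ps1. With windows of 100 bases it ran from 10.5% in Zscan4f to 76.6% in Zscan4-ps1.

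Whether the SE goes with the share of unique sequence was not tested, and members differed in this. Zscan4f had the least unique sequence and the second smallest SE, and Zscan4a, with 36.4%, had an SE of 1.95. On the other side, Zscan4e, Zscan4b and Zscan4c, with 8.43%, 9.65% and 14.5%, had SEs of 2.16, 1.97 and 2.08. Zscan4-ps1, with 51.6%, had an SE of 0.84. The sources used here do not give the counting of reads that map to several places, and the part of likeness in these errors was not tested. Nor do E14 cells come from the mouse strain of the reference genome, and their copies of the cluster may differ from those annotated; this was not tested either.

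Along chromosome 7 the 9 loci span 819.9 kb, from 10794242 to 11614112 in mm10, with gaps of 54.6 to 140.2 kb between neighbours. Zscan4a (10794242 to 10799057), Zscan4b (10900740 to 10905050), Zscan4-ps1 (11065139 to 11069691), Zscan4d (11161374 to 11166159) and Zscan4e (11306378 to 11310682) lie on the minus strand. Zscan4c (11005745 to 11010547), Zscan4f (11397915 to 11402318), Zscan4-ps2 (11514310 to 11519111) and Zscan4-ps3 (11609308 to 11614112) lie on the plus strand. Each has 4 exons in its longest transcript.

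Annotations disagree on which of them code for protein. GENCODE M21 types 8 of the 9 as protein coding, with 506 codons in Zscan4c, Zscan4d, Zscan4f and the 3 pseudogene symbols and 505 in Zscan4b and Zscan4e. RefSeq types Zscan4b, Zscan4c, Zscan4d and Zscan4f as protein coding and the other 5 as pseudogenes. By RefSeq's types, 2 of 4 coding members and 4 of 5 pseudogenes passed the test, where 5.34% of all genes were called higher. Among these pseudogenes Zscan4a kept its call in only 3 of 7 alternatives. The log2 fold changes ran from 4.18 to 6.22 in the coding members and from 4.15 to 5.92 in the pseudogenes. No difference between the types was tested.

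The flanking genes tested, both to the left of the cluster, did not pass, whereas both other genes tested inside it did. On the right no gene was tested within 500 kb, and the nearest tested there, Zfp551, lies 801 kb away. Within 500 kb of its outer ends 110 genes are annotated and 13 of them were tested, 9 members and 4 others. The zinc finger gene Zik1, 299 kb to the left, had 0.11 ± 0.37 with adjusted p = 0.938 according to the authors' deposited table. The processed pseudogene Gm6900, 137 kb to the left, had -0.62 ± 1.02 with adjusted p = 0.853 according to the authors' deposited table. Its mean was only 6.15 counts, and its 95% interval ran from -2.62 to 1.37. Gm18204, which starts 3.3 kb from Zscan4d on the opposite strand, had an implied 14.5 normalized counts in Dot1l KO against 0.65 in WT, with a log2 fold change of 4.47 (95% interval 1.53 to 7.42) and adjusted p = 0.0458 according to the authors' deposited table. Gm45551, 34.7 kb from Zscan4-ps2, had 18.6 in Dot1l KO against 1.28 in WT, at 3.86 ± 1.21 with adjusted p = 0.0270 according to the authors' deposited table. Both calls ended under centring within bins of mean count, at adjusted p = 0.142 for Gm18204 and 0.0797 for Gm45551, and over all alternatives tried these ran from 0.0444 and 0.0258 up to 1.00. The difference between genes inside and outside the cluster was not tested. Gm18204 and Gm45551, with implied WT levels of 0.65 and 1.28, drew most of their counts from Dot1l KO. A gene inside the cluster without reads would hardly be among those tested, so passing by both was nearly set in advance.

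**Figure D4:**
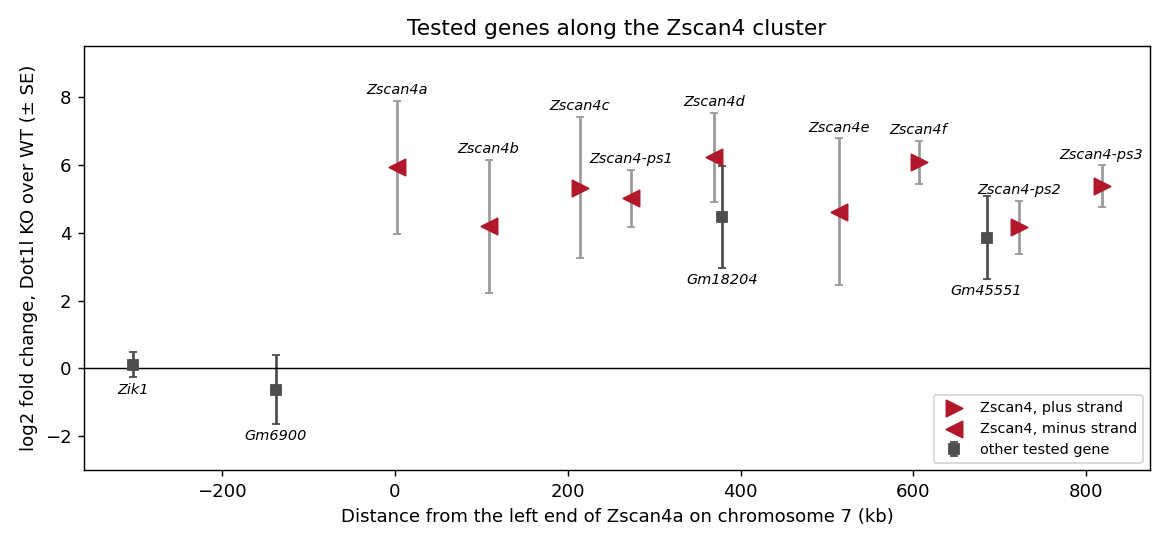
Log2 fold change of Dot1l KO over WT (± SE) for all tested genes within 500 kb of the cluster, against the distance in kb from the left end of Zscan4a; triangles point in the direction of transcription and squares are genes outside the family. All points from 0 kb rightwards lie at 3.86 or above, and Zik1 and Gm6900 to the left lie near 0.

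Other genes of the Zscan series, which share the SCAN domain but lie outside the cluster, had a single rise. Of 12 tested, 1 rose and 0 fell in DESeq2's test, with a median log2 fold change of 0.06. That is near the share over all genes, of which 5.34% were called higher and 1.25% lower. At an unadjusted p under 0.05 the counts were also 1 and 0, beside 10.6% and 5.55% of all genes. The gene that rose was Zscan5b, with an implied 124 normalized counts in Dot1l KO against 31.1 in WT. Its log2 fold change had a 95% interval of 1.19 to 2.80, with adjusted p = 8.02e-05 according to the authors' deposited table. Zscan10, a transcription factor of the pluripotency network, had -0.65 ± 0.41 with adjusted p = 0.472 according to the authors' deposited table.

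Genes transcribed with Zscan4 in 2-cell-like cells rose as well. The list held 36 genes, of which 29 were tested. Of these, 27 rose and 0 fell, where 5.34% of all genes were called higher and 1.25% lower. With Wald statistics scaled by their spread 18 rose, and under Bonferroni adjustment 15. At an unadjusted p under 0.05, 28 were higher and 0 lower, beside 10.6% and 5.55% of all genes. The median was 5.60 on the log2 scale, and 5.20 when the 4 genes that had no WT reads were placed at a lower bound, beside 5.32 for the 9 Zscan4 members. The smallest p-values belonged to Gm21761 at 5.66 ± 0.53 and Gm8300 at 6.55 ± 0.69 according to the authors' deposited table. Lists such as this one were drawn up with earlier results of these data known and are no independent evidence. Several of the 29 had almost no WT level, as Tdpoz3 at 0.65 and AF067061 at 0.37 implied normalized counts. Such genes are among those tested mainly through Dot1l KO, so the share over all genes is no like background.

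Among 7 genes reported to activate Zscan4 or the 2-cell program 6 were tested, and of these 2 rose and 0 fell. Over all genes 5.34% were called higher and 1.25% lower. Duxf3, the Dux gene, had an implied 20.3 normalized counts in Dot1l KO and a WT level that corresponds to no reads. Setting WT to 3 reads in all as a floor, it was at least 20.3-fold higher, leaving the error of its Dot1l KO level aside; the authors' deposited table gives it adjusted p = 0.000216 and a mean of 10.3 counts. Tbx3, a T-box factor that raises Zscan4 in stem cells, stood at 1.24 ± 0.36 with adjusted p = 0.0127 and a mean of 5877 according to the authors' deposited table. Under Bonferroni adjustment neither of these rises passed, and with scaled Wald statistics or a threshold of 0.01 Tbx3 did not. Dppa2 and Dppa4, which activate Dux, had 0.19 ± 0.39 and -0.43 ± 0.32 with adjusted p of 0.890 and 0.565 according to the authors' deposited table.

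Of 26 reported repressors of Zscan4 or of the 2-cell program 0 rose and 1 fell in DESeq2's test, with a median of -0.07. For comparison, 5.34% of all genes were called higher and 1.25% lower. At an unadjusted p under 0.05, 0 of the 26 were higher and 3 lower, beside 10.6% and 5.55% of all genes. Chaf1b, a subunit of the histone chaperone CAF-1, fell by 0.93 ± 0.26 with adjusted p = 0.0105 according to the authors' deposited table. The fall did not pass at a threshold of 0.01, with a log2 fold change of at least 1, under Bonferroni adjustment, under centring within bins, or with Wald statistics scaled by their spread. Lin28a, an RNA-binding protein, had -0.64 ± 0.29 with adjusted p = 0.226, and Rif1, a telomere-associated repressor of Zscan4, 0.49 ± 0.48 with adjusted p = 0.699, both from the authors' deposited table.

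Lists of telomere maintenance, meiotic recombination and DNA methylation genes cover processes that Zscan4 proteins act on. Over all genes 5.34% were called higher and 1.25% lower, and at an unadjusted p under 0.05 these shares were 10.6% and 5.55%. Of 27 telomere maintenance genes 0 rose and 0 fell in DESeq2's test, with 0 higher and 4 lower at an unadjusted p under 0.05 and a median of -0.20. The telomere helicase Rtel1 had -0.67 ± 0.25 with adjusted p = 0.101 and Stn1, a subunit of the CST complex, -0.77 ± 0.35 with adjusted p = 0.216 according to the authors' deposited table. Tert, the reverse transcriptase of telomerase, had -0.13 ± 0.34 with adjusted p = 0.921 according to the authors' deposited table, and was chosen for its role rather than by the rule for named genes.

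Meiotic recombination genes, some of which are reported to accompany telomere lengthening by Zscan4, had 3 rises and 0 falls among 13 tested of 14. At an unadjusted p under 0.05 the counts were 5 and 0, and the median was 0.41. Those that rose were Sycp2, of the synaptonemal complex, at 3.02 ± 0.48, Rec114, needed for meiotic breaks, at 2.64 ± 0.45, and Hormad1, of the meiotic axis, at 1.09 ± 0.27, according to the authors' deposited table. Hormad1 did not pass under Bonferroni adjustment or with scaled Wald statistics, which left 2 rises; its adjusted p over the alternatives ran from 0.000476 to 1.00. Dmc1, the meiotic recombinase, had -0.26 ± 0.39 with adjusted p = 0.834 according to the authors' deposited table.

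DNA methylation genes had 2 rises and 0 falls among 9, with the same counts at an unadjusted p under 0.05 and a median of -0.03. Dnmt3a, a de novo methyltransferase, had 0.85 ± 0.24 and the 5-methylcytosine dioxygenase Tet3 1.18 ± 0.34, with adjusted p of 0.00822 and 0.0139, according to the authors' deposited table. Neither passed under Bonferroni adjustment or with scaled Wald statistics, where 0 rises were left; over the alternatives the adjusted p ran from 0.000826 to 1.00 for Dnmt3a and from 0.0117 to 1.00 for Tet3. Uhrf1 and Dnmt1, which maintain methylation and whose proteins Zscan4 is reported to deplete, had -0.11 ± 0.27 and -0.03 ± 0.25 with adjusted p of 0.913 and 0.980 according to the authors' deposited table; protein was not measured.

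**Figure D5:**
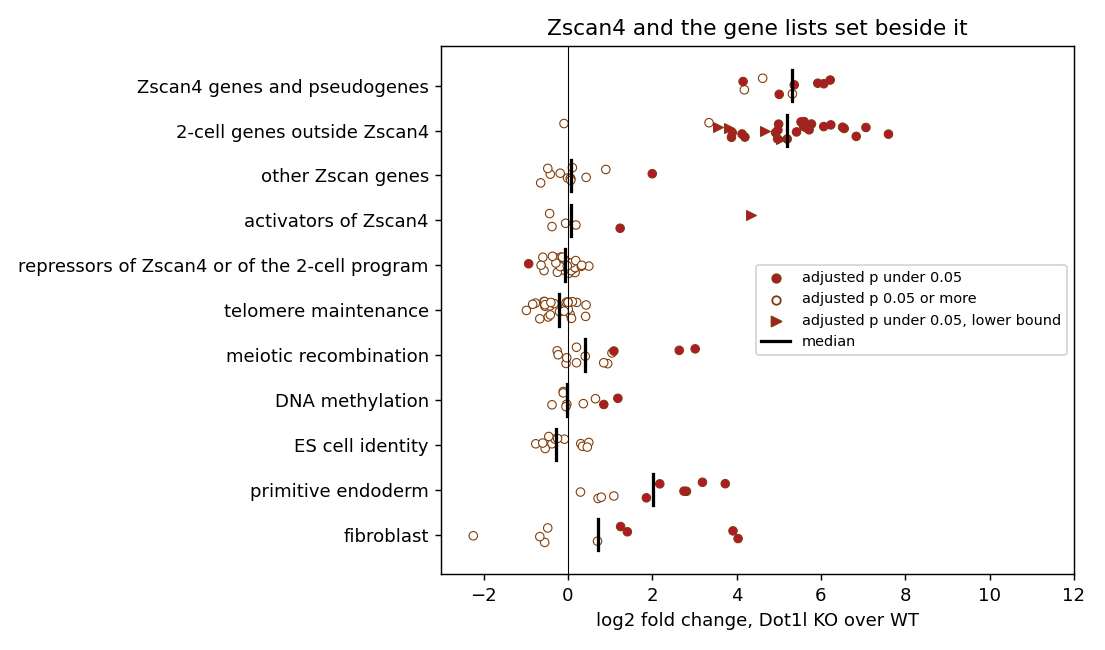
Log2 fold change of Dot1l KO over WT for the 9 Zscan4 members and for each gene list, 1 point a gene, filled where the adjusted p over all genes is under 0.05, with a bar at the median; triangles are genes without WT reads, placed at their lower bound. The Zscan4 members and the other 2-cell genes stand near 5, and the repressor and telomere lists near 0.

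Markers of other cell types were looked at as well, beside shares over all genes of 5.34% called higher and 1.25% lower. At an unadjusted p under 0.05 those shares were 10.6% and 5.55%. Of 11 primitive endoderm markers 10 were tested, all but Foxa2. Of these 6 rose and 0 fell, with 9 higher and 0 lower at an unadjusted p under 0.05. Their summed implied level was 3789 normalized counts in Dot1l KO against 1852 in WT. Much of it came from Lrp2 (1937 against 1121) and Hnf4a (619 against 377), neither of them called. Dab2 at 2.75 ± 0.43 and Cubn at 3.73 ± 0.61, both endocytic proteins of that tissue, had the smallest p-values according to the authors' deposited table. Of 15 fibroblast markers 9 were tested, while Postn, Dcn, Lum, S100a4, Tagln and Fap were not. Of the 9 tested, 4 rose and 0 fell, with 4 higher and 1 lower at an unadjusted p under 0.05. Their summed implied level was 36251 in Dot1l KO against 50614 in WT. Most of it came from Fn1 (26736 against 39210) and Vim (6382 against 8900), neither of them called. The collagen gene Col1a2 and the surface antigen Thy1, at 4.03 ± 0.76 and 1.25 ± 0.34 according to the authors' deposited table, had the smallest p-values. Col1a1 at 1.41 ± 0.39 and Col3a1 at 3.91 ± 1.26 were the others that rose, according to the authors' deposited table. With scaled Wald statistics or Bonferroni adjustment Col1a2 alone of the 4 passed. Acta2, the smooth muscle actin gene, had -2.25 ± 0.84 with adjusted p = 0.0926 according to the authors' deposited table. Vim, Fn1 and Timp1 had -0.48 ± 0.25, -0.55 ± 0.34 and -0.67 ± 0.36 there, with adjusted p of 0.333, 0.454 and 0.359. These 4 were chosen after their values were seen. Centred within bins of mean count, Acta2 passed as lower, at a recomputed adjusted p of 0.0371 in a range of 0.0371 to 1.00 over its alternatives. Of 12 stem cell identity genes 0 rose and 0 fell in DESeq2's test, with 1 higher and 0 lower at an unadjusted p under 0.05; Tdgf1 had 0.46 ± 0.23 and Utf1 -0.76 ± 0.44, with adjusted p of 0.284 and 0.407, according to the authors' deposited table. The part of these markers in the Zscan4 result was not tested.

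MERVL, the endogenous retrovirus whose LTR MT2_Mm is active in 2-cell-like cells, is given here for its size only, since its direction set the sign of all values. MERVL-int had 1.96 ± 0.38 with adjusted p = 0.000107 at a mean of 11376 counts, and MT2_Mm 1.64 ± 0.41 with adjusted p = 0.00979 at a mean of 3172, from the authors' deposited table of TE subfamilies, where 0.641% of 936 subfamilies were called higher. The sum over all copies of a subfamily and the gene counts are not on one footing, so no difference from Zscan4 was tested.

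Outside the Zscan4 family and predicted models, the genes whose log2 fold change lay nearest to that of Zscan4f, among 2238 genes with a mean count within 2 times its own, were Xlr3c, Usp17lc and Usp17la. The authors' deposited table has Xlr3c at 5.90 ± 0.58, Usp17lc at 5.77 ± 1.66 and Usp17la at 5.59 ± 1.82. The likeness is that of 1 comparison between 2 genotypes, not of a profile across samples. Neither Usp17 gene passed under Bonferroni adjustment, with scaled Wald statistics or at a threshold of 0.01, and Usp17la did not under centring within bins.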

How the data were processed

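Total RNA of 3 Dot1l KO and 3 WT samples was sequenced. Per the submitters' processing notes, reads were aligned with HISAT2 2.1.0 to mm10, counted with featureCounts 2.0.0 and tested with DESeq2; the sources used here do not give strand, multi-mapping reads, annotation or model. Per the file headers, the deposited signal is a mean of size-factor normalized counts, beside a log2 fold change and its SE, a Wald score, and a p-value with its Benjamini-Hochberg adjustment. Recomputing the adjustment gave the deposited values. Of 19571 genes, 7 had no p. No values per library were present, so the authors' comparison stands for the planned fit of samples.

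Python 3.11.15 with pandas 2.3.3, scipy 1.17.1 and Biopython 1.88 (alignments) was used, and the recalling of genes was tested on simulated data. A 95% interval is the fold change ± 1.96 SE. A WT level under 0.25 was taken as no reads. Coordinates are from GENCODE M21, matched by symbol, and promoters from RefSeq. TE copies carry no coordinates and were not placed near Zscan4.

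Named were all members, Dot1l, 2 genes of smallest p per list and all called ones where at most 5 were, flanking genes, MERVL and the 3 genes nearest to the best member. Pou5f1, Nanog, Zscan10, Dppa2, Dppa4, Rif1, Tert, Dmc1, Uhrf1, Dnmt1, Acta2, Vim, Fn1 and Timp1 were chosen after their values were seen. Members, lists and tests were chosen with earlier results of these data known.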

Additional observations from a re-analysis of the deposited data

How the results depend on the processing

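The alternatives were an adjusted p under 0.01, a log2 fold change of at least 1, Bonferroni adjustment, centring on the median or within 20 bins of mean count, Wald statistics scaled by their interquartile range, and a mean count of at least 50. The number of Zscan4 members called stayed at 5 or 6 in all of them. All members but Zscan4a kept their call; Zscan4a lost it at 0.01, under Bonferroni adjustment, within bins and with scaled statistics, with recomputed adjusted p of 1.00, 0.0566 and 0.321 in the last 3. Zscan4-ps1 falls out at a mean of 50.

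At 0.01, 661 genes were higher and 106 lower, with 1 activator higher, 0 repressors lower and 1 DNA methylation gene higher. With a log2 fold change of at least 1, repressors had 0 lower and DNA methylation 1 higher. Bonferroni adjustment left 275 genes higher and 34 lower, with 1 fibroblast marker, 3 primitive endoderm markers, 15 other 2-cell genes, 0 activators and 0 DNA methylation genes higher and 0 repressors lower. Centred within bins, 159 genes were lower, with 1 fibroblast marker and 0 repressors. Scaled statistics gave 405 genes higher and 50 lower, with 1 fibroblast marker, 3 primitive endoderm markers, 1 activator and 0 DNA methylation genes higher and 0 repressors lower. They also left 18 other 2-cell genes and 2 meiotic recombination genes higher. Smaller shifts of these counts under the alternatives are not all listed here. At a mean of at least 50, 517 genes were higher, with 2 fibroblast markers, 11 other 2-cell genes and 1 activator.

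The causes were not tested, except that fewer genes are tested at a mean of 50. Among 53 named genes under these settings, 44 of 363 results lost the call, 1 gained it and 0 reversed. The ratio of summed levels, 5.31 on the log2 scale, was 5.53 over called members, 4.81 over members not called and 5.10 without Zscan4d. Called members were picked by the same comparison, so their ratio is no separate check. Leaving out replicates and placing TE copies near Zscan4 were not run. No paired analysis was possible because the tables hold no values per sample. Depth is unknown, and no counting interval was computed.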
